A study of Mus musculus with 38 samples.

Results

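The binding sites of the transcription factor CREB in the liver of mice fasted for 24 h were compared with those in hepatocytes given the fasting hormones glucagon and corticosterone in culture. The sites were 53429 of the 278566 regions in 11 deposited peak lists from chromatin immunoprecipitation with sequencing. They comprised all 11339 sites of the 24 h fasted liver CREB list and all 42090 sites of the list of hepatocytes treated with both hormones. No site of either list was left out. A site was called shared when it had at least 1 base in common with a site of the other list, and liver only or hepatocyte only otherwise. Shares are given with 95% Wilson intervals and differences of shares, in percentage points, with 95% Newcombe intervals, and both cover counting error only.

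Both materials came from C57BL/6 mice, of unstated age and sex, and the same rabbit monoclonal CREB antibody was used on both. The fasted liver group held 3 samples of whole liver, of which the list name gives 2 libraries. The hepatocytes were primary cells freed from liver by collagenase perfusion and held 2 samples, exposed for 1 h to 10 nM glucagon with 1.7 uM corticosterone. Further lists describe the sites: fed liver CREB, untreated hepatocyte CREB, hepatocyte CREB after glucagon alone (10 nM, 1 h), phospho-CREB and H3K27ac of fed and 24 h fasted liver, H3K27ac of 10 h fasted liver, and the glucocorticoid receptor (GR) in hepatocytes treated with both hormones. Each group has 1 list with no value per library, so there is no spread between replicates, no test of a condition could be made, and every difference is one between lists. Source (whole tissue against isolated cells), exposure (24 h of fasting against 1 h of hormone) and library set change together between the 2 CREB lists and cannot be told apart. Whole liver also holds cells other than hepatocytes, and fewer cells that bind a site and weaker binding per cell cannot be told apart. Read depth is unknown.

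CREB is the transcription factor through which a rise in cyclic AMP reaches many genes. In the liver of a fasting animal glucagon raises cyclic AMP, protein kinase A phosphorylates CREB, and CREB bound at cyclic AMP response elements takes part in switching on gluconeogenesis. Glucocorticoids, of which corticosterone is the main one in mice, act in the same state through GR, which binds DNA at elements of its own, and H3K27ac marks active promoters and enhancers.

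The 2 lists differed in length and in site width. The liver list covered 6.54 Mb with a median site width of 496 bp, and the hepatocyte list covered 31.2 Mb with a median of 651 bp. The highest tag density within a site (MaxD in the deposited lists, a signal whose normalisation is not stated) ran from 0.318 to 12969 in liver, with a median of 8.42. In hepatocytes it ran from 0.424 to 979, with a median of 11.4. Density was therefore used only to rank sites within their own list, and comparisons were also made at equal list length, with the 11339 densest hepatocyte sites.

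Close to every second fasted-liver site was bound in hormone-treated hepatocytes, while most hepatocyte sites had no counterpart in liver. Of the 11339 liver sites, 5065 were shared (44.7%, 43.8 to 45.6%). Of the 42090 hepatocyte sites, 4954 were shared (11.8%). The liver list is much the shorter and most sites met 1 site. Most hepatocyte sites would thus lack a counterpart even if every liver site were shared. At equal length 4280 liver sites (37.7%, 36.9 to 38.6%) met one of the densest hepatocyte sites, and 4167 of those hepatocyte sites (36.7%, 35.9 to 37.6%) met a liver site. With lists of equal length and most sites meeting 1 site, the shares from both sides are close by construction.

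Sharing followed density. With each list cut into 10 deciles by density, decile 1 being the densest, the share fell along both, but for a small rise in the last hepatocyte decile. In the densest decile of the liver list 85.4% of sites were shared (83.2 to 87.3%), in decile 2 78.2% and in decile 5 63.0%. The share was 47.3% in decile 6, 16.9% in decile 7 and 3.35% (2.45 to 4.57%) in the last. In the hepatocyte list it was 63.5% (62.0 to 64.9%) in the densest decile, 26.9% in decile 2, 11.0% in decile 3 and between 1.12% and 5.08% in the rest, with 2.45% in the last. Most sites were thus shared in liver deciles 1 to 5 and, in the hepatocyte list, in the densest decile only. The shorter liver list could not supply matches for most sites of every hepatocyte decile. The weakest 30% of the liver list had almost no counterpart. Site width moved with this: median width fell from 1030 to 287 bp over the deciles of the liver list and from 1259 to 292 bp over those of the hepatocyte list, and wide sites meet others more easily. Within liver sites over 600 and up to 1000 bp wide 72.0% were shared, against 23.8% of those of 400 bp or less.

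**Figure D1:**
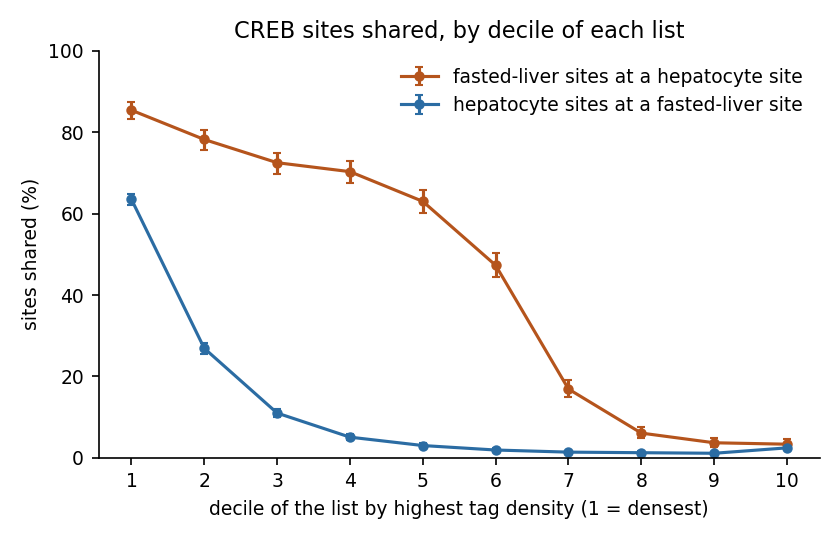
Share of CREB sites (%, y axis) that overlap a site of the other list, by decile of their own list ranked by highest tag density (x axis, 1 is the densest); points are shares and bars 95% Wilson intervals. The liver curve starts at 85.4% and drops between decile 5 (63.0%) and decile 7 (16.9%), and the hepatocyte curve falls from 63.5% to 11.0% by decile 3.

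The common share did not climb further toward the very top of the lists. Among the 100 densest sites of each list 44 were common to both (44.0%, 34.7 to 53.8%). Among the 500 densest it was 51.6%, among the 1000 densest 54.7%, among the 2000 densest 55.9% and among the 5000 densest 54.2% of the liver sites. The 100 densest hepatocyte sites were found in the whole liver list in 94.0% of cases (87.5 to 97.2%), whereas the 100 densest liver sites were found in the whole hepatocyte list in 74.0% (64.6 to 81.6%). Ranked by the deposited z-score in place of density, the common share was lower at each of these sizes, from 33.0% at 100 to 44.2% at 1000. The 100 hepatocyte sites with the highest z-score were found in the whole liver list in 71.0%.

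Matched sites were close in position and similar in order. There were 5079 overlapping pairs, with a median of 89.0 bp between midpoints (90th percentile 353 bp). The hepatocyte site was the wider in 95.6% of pairs, by a median ratio of 1.81, and the liver site lay wholly inside it in 87.6%. Over the pairs, the ranks in the 2 lists had a Spearman rho of 0.67, given as a description. It was 0.59 with ranks by z-score, and 0.62 by density over the 4282 pairs at equal length. Pairs share libraries within a list, and rank was tied to width in both lists (rho -0.84 in liver and -0.51 in hepatocytes). The rho was 0.36 among the 2548 pairs with narrower liver sites and 0.71 among the 2531 with wider ones. Of 973 pairs from the densest liver decile, 945 (97.1%) had a hepatocyte site in the densest decile of that list, at a median rank of 821. Of the 539 pairs of liver decile 6 24.1% did so, at a median rank of 8331. The deciles are of unlike size, with 4209 sites in the densest hepatocyte decile and 1134 in each of these liver deciles. That hepatocyte decile held 2673 of the 4954 shared hepatocyte sites.

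**Figure D2:**
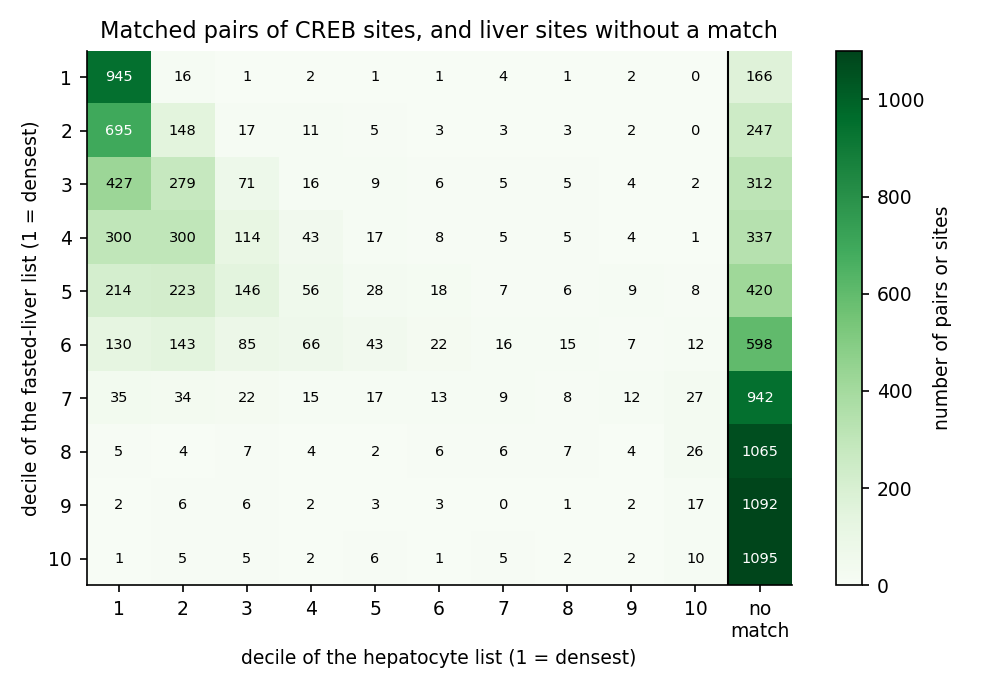
Number of overlapping pairs of CREB sites by decile of the fasted-liver list (y axis) and decile of the hormone-treated hepatocyte list (x axis), 1 being the densest; the last column counts liver sites with no match, and darker green is a higher count. Pairs crowd into the upper left, with 945 in the corner cell, and liver sites without a match rise from 166 in decile 1 to 1095 in the last.

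The 5 pairs with the lowest sum of ranks stood near the top of both lists. The leading pair lay at chr7:52972721-52974105 (mm9) with rank 29 in liver (MaxD 491.0) and at chr7:52972710-52974278 with rank 1 in hepatocytes (MaxD 978.9). The others had liver sites at chr13:46822749-46823950, chr5:125028443-125029810, chr4:126354248-126355515 and chr5:65782048-65783432, with liver ranks 19 to 26 and hepatocyte ranks 8 to 14. All 5 were also in the fed liver list, both other hepatocyte lists, both liver phospho-CREB lists and the H3K27ac region list of 24 h fasted liver. None of the 5 liver sites overlapped a GR site, and 1 of the 5 hepatocyte sites did, that of the leading pair. These are sites that every CREB list compared here holds.

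Some shared sites ranked differently in the 2 lists. Only pairs whose hepatocyte site was among the 11339 densest were ranked for this and for the lowest sums, so larger shifts exist over all pairs, such as 2 liver sites of decile 1 that met a hepatocyte site of decile 9. Among the ranked pairs, the site at chr15:99224722-99225364 was rank 92 in liver and met a hepatocyte site of rank 10833, which spans positions 99222147 to 99224773, so the overlap is at its edge. The other 4 of the 5 largest shifts toward liver had liver ranks of 1250 to 2816 and hepatocyte ranks of 10209 to 11153, and no liver site among the 5 met a GR site. In the opposite direction, the liver sites at chr2:75478455-75478760 (rank 11218) and chr2:75477228-75477683 (rank 8191) both lay inside 1 hepatocyte site of 6016 bp with rank 826. All 5 pairs shifted toward hepatocytes had a liver site and a hepatocyte site that met GR. These pairs were picked for their rank difference, so the GR counts are a description of them.

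The 3 classes differed in the chromatin around them. Over all sites, 39.2% of the liver list and 44.1% of the hepatocyte list lay in an H3K27ac region of 24 h fasted liver. Among liver sites it was 78.7% of the shared (77.6 to 79.8%, 5065 sites) and 7.32% of the liver-only sites (6.70 to 7.99%, 6274 sites), a difference of 71.4 points (70.1 to 72.7). Among hepatocyte sites it was 79.9% of the shared and 39.4% of the hepatocyte-only sites (38.9 to 39.9%, 37136 sites), a difference of 40.6 points (39.3 to 41.8). The shared CREB sites were thus mostly in acetylated chromatin of liver and the liver-only sites mostly outside it. Liver-only sites were narrower (median 413 against 637 bp) and ranked lower (median rank 8066 against 3197). In the densest liver decile it was 82.4% of shared and 53.6% of liver-only sites. Of the 166 liver-only sites of that decile 88 lay on chromosomes X or Y, and 75 of those 88 overlapped H3K27ac. On the autosomes alone it was 82.2% of 954 shared and 17.9% of 78 liver-only sites, a difference of -64.2 points for liver only minus shared (-71.5 to -54.0). In decile 5, where the median widths were 444 and 503 bp, it was 77.0% against 11.2%.

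H3K27ac in the other feeding states gave the same order. In fed liver, whose H3K27ac regions held 37.0% of all liver and 43.4% of all hepatocyte CREB sites, the shares were 75.3% of shared and 6.10% of liver-only sites among the former. In 10 h fasted liver, with 54.8% of all liver and 52.9% of all hepatocyte CREB sites, they were 85.7% and 29.8%. The 10 h list is also the longest of the 3, with 47777 regions against 32103 at 24 h and 29917 in fed liver.

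Phospho-CREB lay more often at liver-only than at shared liver sites. Of all fasted-liver CREB sites 27.4% overlapped a phospho-CREB site of 24 h fasted liver, and of all hepatocyte sites 2.15% did. The share was 15.3% of shared liver sites (14.4 to 16.4%) and 37.2% of liver-only sites (36.0 to 38.4%), so shared sites stood 21.8 points lower (a difference of -21.8, -23.4 to -20.3). Among hepatocyte-only sites, which by rule lie at no fasted-liver CREB site, it was 0.364% (135 of 37136). In decile 2 of the liver list 91.5% of 247 liver-only sites and 6.54% of 887 shared sites met phospho-CREB, and in decile 3 85.6% and 3.04%. From decile 8 on the interval of the difference included 0. In the densest decile the shared sites too were often at phospho-CREB, at 56.1%, against 83.1% of the liver-only sites. There 86 of the 88 liver-only sites on X or Y met phospho-CREB, and on the autosomes alone it was 66.7% of 78 liver-only and 55.8% of 954 shared sites, a difference whose interval included 0 (10.9 points, -0.557 to 20.9).

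Phospho-CREB of fed liver was compared in the same way. Its list met 34.6% of all liver CREB sites and 4.02% of all hepatocyte sites. Over the whole CREB list it met 30.5% of shared and 37.8% of liver-only sites. In deciles 2 to 7 the liver-only sites stood higher, as with the fasted list, with 91.1% against 35.6% in decile 2 (a difference of 55.5 points, 50.2 to 59.7), 87.2% against 13.5% in decile 3 and 37.8% against 18.2% in decile 7. In the densest decile the shared sites stood higher, with 93.3% against 84.3% (a difference of -8.95 points for liver only minus shared, -15.4 to -3.89). The hepatocyte cells have no phospho-CREB list in this comparison, so these values say where liver phospho-CREB lay and nothing of phosphorylation in the treated cells.

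**Figure D3:**
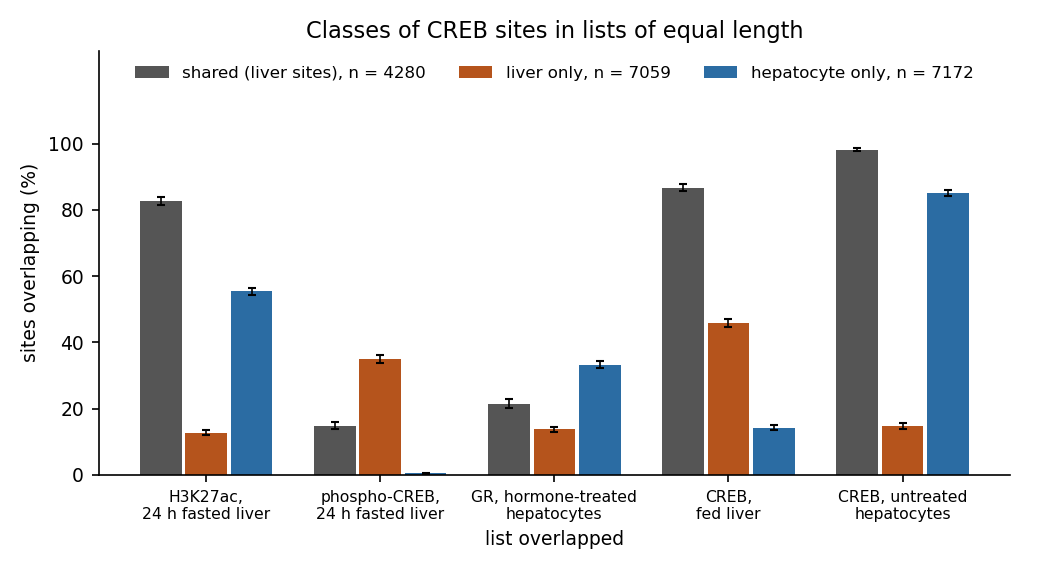
Share of CREB sites (%, y axis) of each class that overlap 5 other lists (x axis), with classes drawn from lists of equal length; bars show shared liver sites, liver-only sites and hepatocyte-only sites with 95% Wilson intervals. Shared sites lead at H3K27ac (82.8%), liver-only sites at phospho-CREB (35.0%) and hepatocyte-only sites at GR (33.3%).

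In the densest decile of the hepatocyte list, hepatocyte-only sites were mostly at GR sites. Of all hepatocyte CREB sites 11.4% overlapped a GR site of hepatocytes given the same hormones, and of all liver CREB sites 16.7% did. In the densest decile of the hepatocyte list 1154 of the 1536 hepatocyte-only sites met GR (75.1%, 72.9 to 77.2%), against 733 of the 2673 shared ones (27.4%, 25.8 to 29.1%), a difference of 47.7 points (44.9 to 50.4). In decile 2 it was 26.8% against 13.7%. In deciles 3 and 4 the interval of the difference included 0, and from decile 5 on the order was the opposite, with 5.44% against 14.2% in decile 5. Median width in the densest decile was 1129 bp for hepatocyte-only and 1329 bp for shared sites, so the wider class had the lower GR share.

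Because of this turn, the sign over the whole list depends on its length. Over all hepatocyte sites 22.1% of shared and 9.99% of hepatocyte-only sites met GR, a difference of 12.1 points (10.9 to 13.3). At equal length it was 22.5% of 4167 shared and 33.3% of 7172 hepatocyte-only sites, a difference of -10.8 points (-12.5 to -9.14). The GR sites met in the densest hepatocyte decile were themselves of like strength, with a median position at 11.1% of the GR list from its densest end for hepatocyte-only and 12.2% for shared CREB sites.

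The liver list showed a turn of the same kind. In liver deciles 1, 2 and 3 GR was met by 27.1%, 40.1% and 34.6% of liver-only sites against 8.78%, 17.2% and 20.9% of shared ones, differences of 18.3 (11.8 to 25.7), 22.8 (16.4 to 29.5) and 13.7 points (7.85 to 19.7). In decile 4 the interval included 0, and in decile 5 it was 15.7% against 26.1%. On the autosomes alone the difference was 4.43 points in decile 1, with an interval that included 0 (-1.59 to 13.8), and 31.5 points in decile 2 (21.1 to 41.8). Over the whole liver list 21.2% of shared and 13.1% of liver-only sites met GR. Among dense sites of either list a higher GR share was thus seen at sites of that list only, and whether its size differs between the lists was not tested.

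The dense hepatocyte-only sites were not limited to the corticosterone treatment. Of the 1536 hepatocyte-only sites in the densest decile, 95.2% were also in the CREB list of glucagon alone (94.1 to 96.2%) and 85.2% in that of untreated hepatocytes (83.4 to 86.9%). Over all hepatocyte sites the shares in these lists were 52.3% and 60.7%. Of the shared sites of the same decile 99.7% and 99.3% were in them. At like density the hepatocyte-only sites thus stood lower, with differences of -4.45 (-5.64 to -3.45) and -14.1 points (-16.0 to -12.4). Of the dense hepatocyte-only sites 17.1% were in the fed liver CREB list, against 90.9% of the shared sites of that decile and 14.5% of all hepatocyte sites. Phospho-CREB of fasted liver was met by 0.586%, against 22.5% of those shared sites and 2.15% of all. Low shares at liver CREB and phospho-CREB follow in part from the class, which by rule excludes sites at fasted-liver CREB. An H3K27ac region of fasted liver held 50.2%, against 84.7% of those shared sites. The CREB lists of cells that received no corticosterone thus held most of these sites as well. The untreated list is the longest CREB list, with 47596 sites, and comes from 1 sample whose library is paired with itself in the list name. Whether the culture medium itself held a glucocorticoid is not stated.

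**Figure D4:**
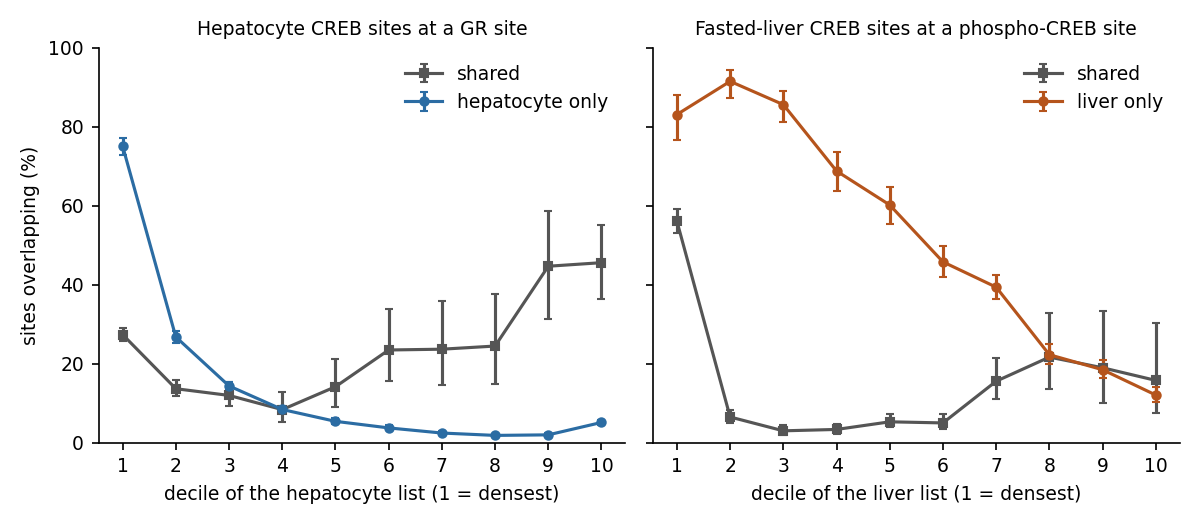
Left, share of hepatocyte CREB sites (%) that overlap a hepatocyte GR site, and right, share of fasted-liver CREB sites (%) that overlap a phospho-CREB site of fasted liver, each by decile of the CREB list (x axis, 1 is the densest) for shared sites and for sites of that list only, with 95% Wilson intervals. GR stands at 75.1% of hepatocyte-only against 27.4% of shared sites in the densest decile, and phospho-CREB at 91.5% of liver-only against 6.54% of shared sites in decile 2.

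The 5 densest hepatocyte-only sites by MaxD all overlapped a GR site. They were chr4:7122321-7124711 (MaxD 603.8, rank 22), chr4:32401491-32402850 (508.8, rank 38), chr2:132514984-132516428 (443.9, rank 62), chr1:83955581-83957234 (435.6, rank 64) and chr3:58038444-58039950 (406.0, rank 93). None of the 5 was in the fed liver list or at liver phospho-CREB, all were in both other hepatocyte lists, and 3 lay in H3K27ac regions of fasted liver. By z-score the 5 leading hepatocyte-only sites were others, headed by chr6:47717258-47718139 (z-score 2450, density rank 290). Of these 5, 4 met GR and 2 were in the fed liver list.

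The 5 densest liver-only sites met no GR site, while in the whole densest liver decile 45 of 166 liver-only sites did. The 5 were chr10:121200000-121200532 (MaxD 12969, rank 1), chr13:45493744-45494322 (8042), chrX:141949418-141949913 (6571), chr14:46432125-46432698 (5458) and chr16:10832530-10832842 (3063, rank 6), and the z-score gave the same 5. All 5 were in the fed liver CREB list, 4 met phospho-CREB in both feeding states, and none met GR, H3K27ac or another hepatocyte CREB list. The liver list held 14 sites with a MaxD over 1000. They were 312 to 649 bp wide, 2 were shared, 14 were in the fed list, 11 at fasted phospho-CREB and 0 at GR. The next 100 liver sites, with MaxD from 250.4 to 930.1, were wider (median 1219 bp), and 84 of them were shared. The liver sites above 1000 thus stood apart from the next ones in width, in sharing and in the ratio of highest to mean density (median 1.71 against 2.73). Without them the shares of the whole lists were 44.7% and 11.8%, as with them.

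The densest shared site by liver density was chr7:97590148-97590775 (MaxD 5594, rank 4), which also met phospho-CREB and H3K27ac in both feeding states. The next 4, with MaxD from 565.9 to 1131, were chr11:22872868-22873378, chr1:74061286-74061915, chr13:46822749-46823950 and chr4:126354248-126355515. All 5 overlapped H3K27ac of 24 h fasted liver and were in the fed liver list.

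A large part of the dense liver-only sites lay on the sex chromosomes. Chromosome X held 1102 liver CREB sites, 9.72% of the list, and 144 of them were shared (13.1%, 11.2 to 15.2%). Chromosome Y held 142, of which 5 were shared (3.52%). On the autosomes 4916 of 10095 were shared (48.7%, 47.7 to 49.7%), ranging from 34.1% on chromosome 14 to 74.2% on chromosome 11. In the densest liver decile 92.4% of 1032 autosomal sites were shared (90.7 to 93.9%), against 22.4% of 58 on X (13.6 to 34.7%) and 1 of 44 on Y. Thus 88 of the 166 liver-only sites of that decile lay on X or Y, and in decile 2 156 of 247.

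Chromosome X took up more of each CREB or phospho-CREB list from liver than of any list from hepatocytes. It held 8.59% of the fed liver CREB list, 14.0% and 12.9% of the fasted and fed phospho-CREB lists, 2.49% of the hormone-treated hepatocyte CREB list, 2.61% of that of glucagon alone, 4.09% of the untreated one and 5.32% of the hepatocyte GR list. Of the 24 h fasted H3K27ac list it held 3.02%. Of the liver CREB sites on X 56.1% met phospho-CREB of fasted liver, against 27.4% of all liver CREB sites. H3K27ac of 24 h fasted liver was met by 22.7% of those on X and 39.2% of all. For H3K27ac of 10 h fasted liver it was 62.1% and 54.8%. The sexes of the mice behind each library, and the input or control libraries, are not in the lists used here, and their part in this was not tested. In liver decile 2 the phospho-CREB contrast was also seen on the autosomes alone, where 81 of 91 autosomal liver-only sites met phospho-CREB (89.0%) against 49 of 864 shared ones (5.67%), and over all autosomal sites the difference was -16.7 points.

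The liver-only sites lay a median of 40.6 kb from the nearest hepatocyte site, with 113 of 6274 within 1 kb and 12.5% within 5 kb, so few were near misses of the overlap rule. For hepatocyte-only sites the median to the nearest liver site was 74.5 kb. Of the 6274 liver-only sites 40.4%, and of the 37136 hepatocyte-only sites 41.4%, had another of their own class within 5 kb. Sites so close together are not independent, so the intervals above are too narrow.

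The shared sites were seldom particular to the fasted or hormone-treated state. Of the 5065 shared liver sites, 97.0% were also in the hepatocyte list of glucagon alone or of untreated cells, 83.2% were in the fed liver list, and 4011 (79.2%, 78.1 to 80.3%) were in all 3 hepatocyte lists and in fed liver. For comparison, 61.3% of all fasted-liver sites and 14.5% of all hepatocyte sites were in the fed liver list. The untreated hepatocyte list held 46.3% of all fasted-liver sites and 60.7% of all sites of the hormone list, and the glucagon list 43.8% and 52.3%. Of the 6949 fasted-liver sites also bound in fed liver 60.6% were shared with the hormone-treated cells, against 19.4% of the 4390 absent from the fed list. Those 4390 also ranked lower, with a median rank of 8646 against 3670. Of the whole liver list 50.1% was in none of the 3 hepatocyte lists.

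The fasted-liver list did not share more with the hormone-treated cells than the fed-liver list did. With the 11339 densest sites of each list, fed liver shared 43.4% with untreated, 43.0% with glucagon-treated and 42.5% with glucagon plus corticosterone-treated hepatocytes. Fasted liver shared 36.6%, 37.3% and 37.7%. The difference, fasted minus fed, was -6.83 points with untreated cells (-8.11 to -5.56), -5.64 with glucagon (-6.92 to -4.37) and -4.71 with both hormones (-5.98 to -3.43). Fed liver thus had the higher share with each hepatocyte list at this length, by the smallest margin for both hormones. This length is the whole fasted list with its weakest sites, whereas the fed list of 13142 sites lost its weakest ones. Weak sites were seldom shared, and how much of the margin goes with this cut was not tested. These comparisons share their lists, and whether the margins differ from one another was not tested.

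Among the densest sites the margin shrank. At 5000 sites per list fasted minus fed was -4.06 points with untreated cells, -1.32 with glucagon (-3.26 to 0.618) and 0.540 with both hormones (-1.41 to 2.49). At 1000 sites the fed and fasted shares were 76.9% and 73.8% with untreated cells and 54.8% and 54.7% with both hormones, and the intervals of all 3 differences included 0. At both sizes fed and fasted liver alike shared most with untreated hepatocytes and least with those given both hormones. The untreated list is from 1 sample, and its list name gives that library against itself, so its making differs from that of the other CREB lists.

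**Figure D5:**
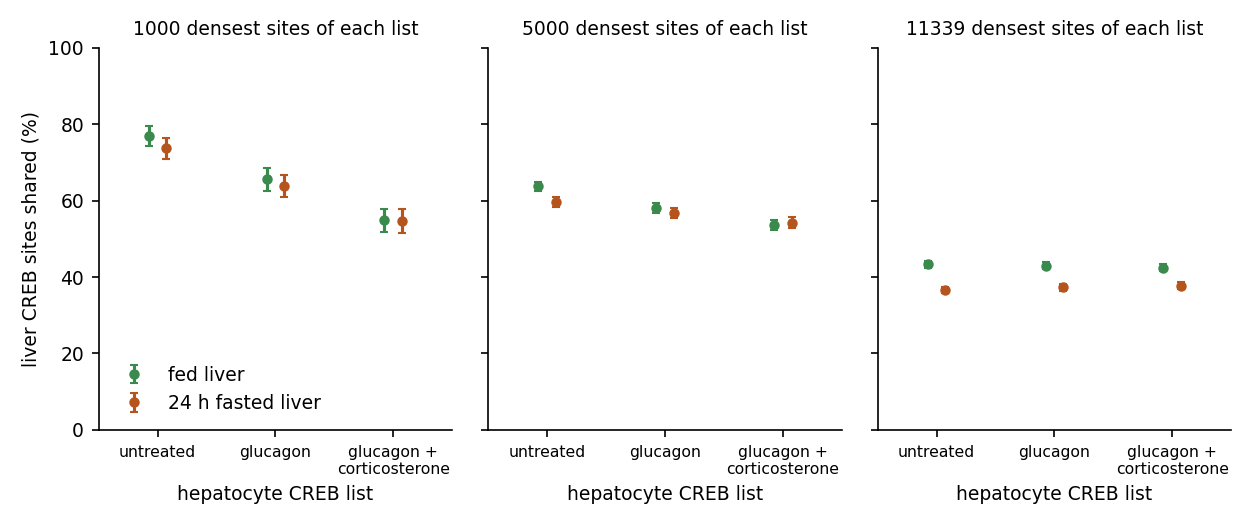
Share of liver CREB sites (%, y axis) that overlap a hepatocyte CREB site, for fed and 24 h fasted liver against the lists of untreated, glucagon-treated and glucagon plus corticosterone-treated hepatocytes (x axis), with the 1000, 5000 or 11339 densest sites of each list; bars are 95% Wilson intervals. At 11339 sites fed liver lies above fasted liver for all 3 hepatocyte lists, and with both hormones at 5000 sites the values are 53.6% and 54.2%.

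A small set of sites was held by the fasted-liver and hormone-treated lists and by neither the fed-liver nor the untreated list. These filters define the set. Among the 11339 densest sites, 54 fasted-liver sites met a site of the hormone-treated cells and were absent from the whole fed liver and untreated hepatocyte lists. Of the 54, 31 overlapped a GR site (57.4%, 44.2 to 69.7%), 35 lay in H3K27ac of fasted liver, 37 were in the glucagon list and 7 met fasted phospho-CREB. Of all fasted-liver sites 16.7% met GR, 39.2% H3K27ac, 43.8% the glucagon list and 27.4% fasted phospho-CREB. Of the 4280 shared liver sites at equal length, from which the 54 come, the values were 21.5%, 82.8%, 99.1% and 14.9%. The crossed combination, fed liver with hormone-treated cells and absent from fasted liver and untreated cells, held 38 sites with 9 at GR (23.7%). Fed liver with untreated cells, absent from fasted liver and hormone-treated cells, held 15 sites, of which 7 were in the glucagon list. Fasted liver with untreated cells, absent from fed liver and hormone-treated cells, held 3, and all 3 were in the glucagon list. None of either set was at GR. The matched set was thus 54 sites against 38 in the crossed set at this length, and 14 against 1 with the 5000 densest sites of each list. Absence was judged against whole liver lists of unlike length, 13142 sites in fed and 11339 in fasted liver. These counts are therefore a description only. The densest of the 54 lay at chr13:94397107-94397878 (liver rank 1704), chr10:59432322-59432991 (rank 1732), chr1:173169996-173170713 (rank 2024), chr5:122756365-122757046 (rank 2514) and chr8:112511626-112512198 (rank 2608). The first 3 of these 5 were in the glucagon list, and 4 of the 5, all but the first, met GR. This set was chosen after the values were seen.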

How the data were processed

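The data were peak lists deposited by the authors, 1 per group, from libraries read with CASAVA 1.8 on build mm9, per the submitters' processing notes. The names of the H3K27ac lists speak of pooled libraries and hotspot calling. Those of the CREB, phospho-CREB and GR lists give a pair of libraries and a false discovery rate tag, so the 2 kinds may have been made differently. The aligner, the peak caller's version and settings, and any control library were not given in the sources used here. Of 13 lists, 2, holding 8 columns of measurements, belonged to no sample listed and are not used. Per the file headers, each deposited region has its highest tag density, a signal, its mean density, and from the peak caller a z-score together with a p-value that was not used. The z-score is the authors' peak caller's score, made before deposit, with a scaling that is not stated. Density and z-score served only to rank, describe or filter sites within a list. Start and end were both counted as bases, and whether the lists count positions from 0 or 1 is not stated.

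The members and comparisons were chosen with earlier results of these data known. Samples were grouped by antibody, source and treatment from the labels. Overlap, ranks, equal-length lists, deciles by rank, Wilson and Newcombe intervals and Spearman's rho were computed with Python 3.11.15, numpy 2.4.6, pandas 2.3.3 and SciPy 1.17.1, and figures drawn with matplotlib 3.10.9. The overlap code was tested on simulated data. Named sites were, by rule, the 5 densest of each class by density (and by z-score for sites of one list only), and, with both lists at equal length, the 5 shared sites with the lowest rank sum and the 5 with the largest rank difference each way. The widths, deciles by chromosome (also for autosomes alone) and state-specific sites were added after the values were seen. Genes and motifs had been planned and were not analysed here, since the gene and promoter tables at hand are of GRCm38.p6 and the lists of mm9, so no sequence is printed. Alternatives were another overlap rule, midpoint windows, other lengths and rankings, and sets of sites left out.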

Additional observations from a re-analysis of the deposited data

How the results depend on the processing

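No paired analysis was possible because each group has 1 list without values per library and the results come from no test; for the same reason no replicate could be left out. Counting error is the only error the intervals hold, and the depth behind the lists is unknown, so a site missing from a list is not shown to be unbound. Below, the 4 overall shares are, in order, the liver list in the whole hepatocyte list (44.7%), the reverse (11.8%), the liver list at equal length (37.7%) and the reverse (36.7%). Asking for 50% of the shorter site, or leaving out liver sites with MaxD over 1000, left all 4 within their intervals, and ranking by z-score left the latter pair there. A gap of up to 500 bp gave 45.8% and 13% for the whole lists. Windows of 250 bp to each side of the midpoints gave 42.7%, 11.4%, 35.9% and 35.6%. The upper 50% of each list gave 72.0%, 19.1%, 53.4% and 52.4%. Without chromosomes X and Y the first was 48.7%, the third 40.4% and the last 39.3%. Without sites at liver phospho-CREB they were 50.4%, 8.23%, 35.9% and 35.1%.

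The excess of H3K27ac at shared over liver-only sites (71.4 points) was 70.0 at equal length by density, 68.5 by z-score, 67.7 with windows and 74.0 without X and Y, the last chosen after seeing the data. That over hepatocyte-only sites (40.6) was 28.7, 33.4 and 38.7 in the first 3 of these. The phospho-CREB difference (-21.8) was -20.1 and -19.6 at equal length by density and z-score and -16.7 without X and Y. The GR difference, shared minus hepatocyte only (12.1), turned to -10.8 and -14.4 at equal length by density and z-score, which keep only denser hepatocyte sites, and was 10.2 with windows; shared minus liver only (8.13) was 5.82 with windows, and had the opposite sign in liver deciles 1 to 3. In the densest hepatocyte decile the GR difference of 47.7 stayed between 46.9 and 49.0 under 4 alternatives added after seeing the data. Fasted minus fed liver, with untreated, glucagon and both hormones, was -4.11, -2.78 and -2.32 by z-score, -4.06, -1.32 and 0.540 at 5000 sites, where the last turned, and -9.75, -8.55 and -9.13 with hepatocyte lists of 28229 sites.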

Other observations

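Combinations of marks also differed between the 3 classes. The classes come from the whole lists, where liver-only and hepatocyte-only sites ranked lower and were narrower than shared ones. Of all liver CREB sites 39.2% lay in H3K27ac of 24 h fasted liver, 27.4% met its phospho-CREB and 16.7% met GR. Of all hepatocyte CREB sites these shares were 44.1%, 2.15% and 11.4%. Of the shared liver sites 54.1% lay in H3K27ac of 24 h fasted liver without phospho-CREB or GR, and 13.7% had none of the 3. Of the liver-only sites 56.6% had none, 25.3% met phospho-CREB alone and 6.98% met phospho-CREB and GR outside H3K27ac, a combination found in 1.86% of the shared sites. In H3K27ac at GR without phospho-CREB lay 5 of the 6274 liver-only sites and 699 of the 5065 shared liver sites (13.8%). Of the hepatocyte-only sites 54.4% had none of the 3, 35.5% lay in H3K27ac alone and 5.93% met GR alone.

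Liver-only sites met H3K27ac more often in the 10 h fasted list than in the others. In decile 1 of the liver list 57.8% of liver-only sites overlapped H3K27ac of 10 h fasted liver, against 53.6% at 24 h and 50.6% in fed liver. In decile 3 of the liver list 76.6% of liver-only sites overlapped H3K27ac of 10 h fasted liver, against 18.6% at 24 h and 14.4% in fed liver. For the shared sites of that decile the values were 88.8%, 84.8% and 81.6%. In decile 5 the liver-only values were 55.2%, 11.2% and 8.57%, so of these 3 deciles the gap was smallest in the densest. The 10 h list is longer, and how much of the gap goes with its length was not tested. In decile 3, 140 liver-only sites (44.9%) lay on X or Y, and the 10 h overlap by decile was not split by chromosome.

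Weak sites that were shared had an unlike profile from strong shared sites. In the last decile of the hepatocyte list 103 of 4209 sites were shared, of which 45.6% met GR (36.3 to 55.2%), 43.7% met phospho-CREB of fasted liver and 3.88% lay in H3K27ac of 24 h fasted liver. In the densest decile the shared sites were at GR in 27.4%, at phospho-CREB in 22.5% and in H3K27ac in 84.7%. The hepatocyte-only sites of the last decile were at GR in 5.16%, at phospho-CREB in 1.12% and in H3K27ac in 5.36%. The low H3K27ac share was thus common to both classes of that decile. Median width of the shared sites was 403 bp in the last decile and 1329 bp in the densest.

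The hormone-treated hepatocyte list was divided by membership in the other lists. Of its 42090 sites 31.4% were in no other CREB list of hepatocytes nor in fasted liver, with a median rank of 33213, and 4.22% of them met GR. The sites found in all 3 hepatocyte lists and in fasted liver made up 10.8%, with a median rank of 3399, and 83.2% of these lay in H3K27ac of fasted liver. A further 33.9% were in all 3 hepatocyte lists and not in fasted liver, with 58.5% in H3K27ac and 16.6% at GR. Sites held with glucagon and with both hormones but neither in untreated cells nor in fasted liver were 7.32% of the list, and 17.4% of them met GR.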
